A study of Mus musculus with 4 samples.

Results

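The transglutaminase family was described in mouse skin at E17.5, late in gestation, with and without overexpression of Ovol2. The family was taken by symbol as 7 genes, Tgm1, Tgm2, Tgm3, Tgm5, Tgm6, Tgm7 and F13a1, of 19938 genes with a probe set of their own on the array. Each member has 1 probe set, and no probe set names a member together with another gene. A filter removed the dimmest 25% of genes by mean level, which left 14953 genes to test and 6 of the 7 members; Tgm6 lay below that filter. The family was selected on the measured difference between Ovol2 BT and control skin, which was already known, and its adjusted p-values below therefore describe the fit and are not independent tests of the members.

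The data are 4 Affymetrix arrays of skin RNA, and on each the RNA of 2 female mice was pooled. In the Ovol2 BT group (2 arrays, strain given as FVB/N) the mice carried TRE-Ovol2-Flag, an Ovol2 transgene with a Flag tag behind a tetracycline-responsive element, together with K5-tTA, a tetracycline transactivator driven by a keratin 5 promoter, which is active in basal keratinocytes. The control group (2 arrays, strain given as CB6F1) carried TRE-Ovol2-Flag alone or no transgene. Since the strain labels differ between the groups although the animals are called littermates, effects of strain and of genotype cannot be told apart, and a sequence difference under a probe was not examined. P-values measure only the spread between these pools. Ovol2 encodes a zinc finger repressor made in epithelia; the comparison addresses what its excess does to epidermal gene expression. The skin was taken whole: markers of keratinocytes (Krt10, 9303 and 8733 in Ovol2 BT against 10654 and 9152 in control), of dermal fibroblasts (Col1a1, 9027 and 7317 in Ovol2 BT against 7835 and 7405 in control) and of muscle (Acta1, 7539 and 7558 in Ovol2 BT against 7416 and 6400 in control) were all bright. Ovol2 itself had an intensity of 4367 and 3893 in Ovol2 BT and 360 and 161 in control. In limma 144 of 14953 genes passed an adjusted p of 0.05, which is 0.963% of those tested (92 higher and 52 lower in Ovol2 BT). After centring on the deviations of cell junction genes, a setting chosen after seeing the data, the split was 201 higher and 20 lower. The median difference of all genes moved to 0.27, against -0.04 as deposited. This centring moves the difference of each gene by the same amount. As deposited, the cell junction list was itself lower in Ovol2 BT, with a median of -0.27 and 14 of 15 tested genes lower.

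Transglutaminases are calcium-dependent enzymes that join a glutamine of one protein to a lysine of another, which leaves a bond that proteases do not cut. In the upper epidermis TGM1, TGM3 and TGM5 cross-link involucrin, loricrin and small proline-rich proteins into the cornified envelope, the protein shell that replaces the membrane of a dying keratinocyte. Loss of human TGM1 gives lamellar ichthyosis, loss of TGM5 gives acral peeling skin, and loss of TGM3 gives uncombable hair, as does loss of its hair substrate trichohyalin. TGM2 and the A subunit of factor XIII (F13a1) act mainly outside keratinocytes, in vessel walls, matrix and blood clots.

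Of the 6 members tested, 1 was called lower in Ovol2 BT (Tgm3) and 0 were called higher by limma at an adjusted p of 0.05, in a fit that called 0.348% of all genes lower and 0.615% higher. At an unadjusted p of 0.05, Tgm5 also passed (limma adjusted p = 0.408). Both Ovol2 BT arrays lay below both control arrays for Tgm3, above them for Tgm5, Tgm2 and Tgm7, and overlapped with them for Tgm1, F13a1 and Tgm6. Among all genes tested the groups stood apart in 42.3% (21.9% lower and 20.4% higher in Ovol2 BT), and in 42.0% of all named genes, so 4 of 7 members with separate groups is a plain count and nothing is read from it. The median difference of the 6 tested members was 0.05 on the log2 scale, beside -0.04 for all genes tested.

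**Figure D1:**
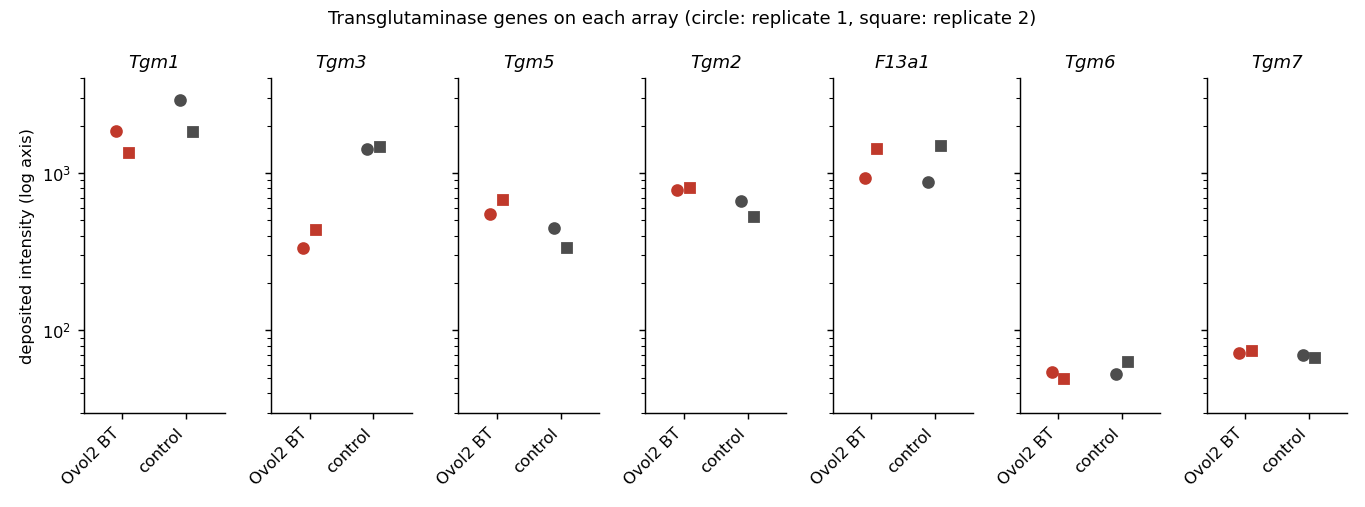
Deposited intensity (log axis) of the 7 transglutaminase genes on each array, Ovol2 BT in red on the left and control in grey on the right of each panel, circles for replicate 1 and squares for replicate 2. Tgm3 lies at 334 and 432 in Ovol2 BT and at 1430 and 1473 in control, while F13a1 separates the replicate numbers and not the groups.

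Tgm3 encodes the epidermal and hair follicle transglutaminase, made as a zymogen that proteases activate. Its intensity was 334 and 432 in Ovol2 BT, against 1430 and 1473 in control. Both Ovol2 BT arrays were low and both control arrays high, with a gap between the groups far wider than the spread within either (383 ± 69.5 in Ovol2 BT and 1452 ± 29.8 in control, SD, n = 2 each). The difference was -1.89 on the log2(intensity + 16) scale (SE 0.22, 95% interval -2.38 to -1.40), 3.71-fold lower in Ovol2 BT, with a limma adjusted p of 0.00605. By size it was number 11 of the 52 genes called lower. Fewer cells that express the gene and less RNA per cell cannot be told apart in bulk skin.

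Tgm1 encodes the transglutaminase that is anchored to the keratinocyte membrane. Its intensity was 1844 and 1345 in Ovol2 BT, against 2899 and 1830 in control. The groups overlapped narrowly, since replicate 1 of Ovol2 BT lay just above replicate 2 of control, and only replicate 1 of control stood clearly above the rest. The difference was -0.54 (SE 0.26, 95% interval -1.13 to 0.05, adjusted p = 0.522). The interval runs from 2.20-fold lower to 1.03-fold higher in Ovol2 BT. The difference was -0.21 without control replicate 1 and -0.87 without control replicate 2. It was 0.03 with arrays centred on the median level of the cell junction genes, which left those genes at a median of 0.30. Centred on the median deviation of the same genes, a setting chosen after seeing the data, it was -0.24. Without Ovol2 BT replicate 1 it was -0.77, and without Ovol2 BT replicate 2 it was -0.32. The size of the difference depends on which arrays are used.

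Tgm5 encodes another epidermal transglutaminase, best known from the upper layers. Its intensity was 549 and 675 in Ovol2 BT, against 447 and 336 in control. Both Ovol2 BT arrays were the higher ones, with a spread within each group close to the gap between them. The difference was 0.63 (SE 0.23, 95% interval 0.10 to 1.16), 1.55-fold higher in Ovol2 BT, and it did not pass the adjustment over all genes (adjusted p = 0.408). With 1 array left out it ranged from 0.43 to 0.83.

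**Figure D2:**
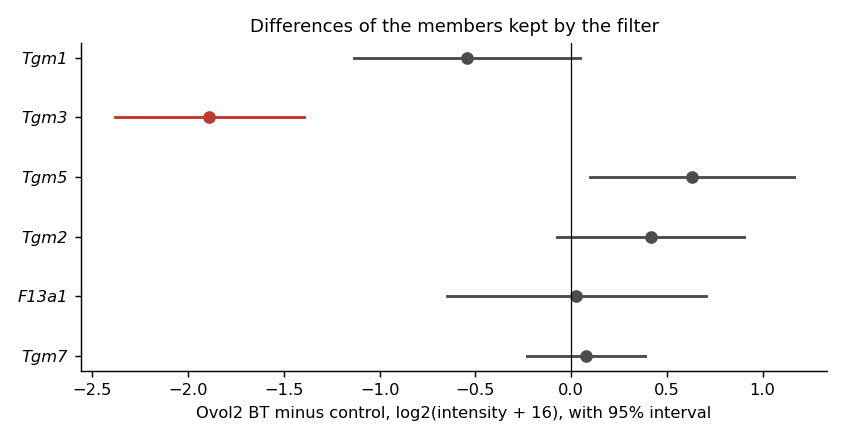
Difference between Ovol2 BT and control for the 6 members kept by the filter, on the log2(intensity + 16) scale, with points for the estimate and lines for limma's 95% interval (2 arrays per group); red marks an adjusted p under 0.05. The interval of Tgm3 (-2.38 to -1.40) lies below 0, that of Tgm5 (0.10 to 1.16) above it, and those of the other 4 members include 0.

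The values of the 3 epidermal enzymes can be set against each other within each array, as a description that restates the difference of Tgm3 used to select the family. Since probe sets differ in brightness, their ratios are read only as changes between arrays. The log2 ratio of Tgm3 to Tgm1 was -2.41 and -1.60 in Ovol2 BT, against -1.01 and -0.31 in control. The ratio of Tgm3 to Tgm5 was -0.69 and -0.62 in Ovol2 BT, against 1.64 and 2.08 in control. In both ratios the groups stood apart, and the mean difference was -1.35 for Tgm3 over Tgm1 and -2.52 for Tgm3 over Tgm5. Against Krt10, a keratin of the suprabasal layers where these enzymes are made, Tgm3 was at -4.74 and -4.29 in Ovol2 BT and at -2.88 and -2.62 in control, a mean difference of -1.76. Tgm1 over Krt10 differed by -0.41 and Tgm5 over Krt10 by 0.76. These within-array ratios were not tested.

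The starts of the 3 epidermal genes are shown because the RNA of Tgm3 was called lower and that of Tgm1 and Tgm5 was not. Each line gives the 100 bases before a RefSeq transcription start on GRCm38.p6, 5′ to 3′ on the strand of the gene, and capitals mark TATAAA, a core promoter element. The windows are chr2:130012240-130012339 on the plus strand for Tgm3, chr14:55713493-55713592 on the minus strand for the upstream of 2 listed starts of Tgm1, and chr2:121085842-121085941 on the minus strand for Tgm5.
Tgm3: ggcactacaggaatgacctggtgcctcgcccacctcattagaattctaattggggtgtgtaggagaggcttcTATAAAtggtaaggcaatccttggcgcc
Tgm1: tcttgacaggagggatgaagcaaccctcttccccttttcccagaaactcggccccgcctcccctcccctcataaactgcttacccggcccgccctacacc
Tgm5: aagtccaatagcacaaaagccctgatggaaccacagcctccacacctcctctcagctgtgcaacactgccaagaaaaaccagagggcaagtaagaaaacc
RefSeq windows of 300 bases (250 before and 50 after the start) were found for 6 of the 7 members, with 9 starts in all. Both strands were searched for TATAAA and for CCGTTA, the core sequence described for OVOL proteins. TATAAA occurred once among the 9 windows, 28 bases before the start of Tgm3, and in 13.6% of all 32851 mouse windows. CCGTTA occurred in none of the windows of Tgm1, Tgm3 and Tgm5 and in 2.76% of all windows. A match is a run of letters and was not examined as a binding site.

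Some basal keratinocyte, adipocyte and melanocyte markers were called beside Tgm3. Among all genes tested 0.348% were called lower and 0.615% higher. In the basal keratinocyte list 3 of 13 tested genes were called lower and 0 higher (Krt15, Krt14 and Krt5). The summed intensity of this list was 17145 and 14371 in Ovol2 BT, against 29874 and 27069 in control. Krt14, a keratin of the basal layer, had 2832 and 2170 in Ovol2 BT and 6529 and 5261 in control. In the spinous list 0 of 10 genes were called. Its sum was 42044 and 38220 in Ovol2 BT against 48830 and 38736 in control, and the groups overlapped. In the adipocyte list 7 of 13 genes were called higher and its sum was 25680 and 26254 in Ovol2 BT, against 10933 and 8526 in control. In the melanocyte list 1 of 9 tested genes was called lower (Tyr, -1.15, limma adjusted p = 0.0328) and 0 higher. All 9 had lower values (100%, against 55.6% of all genes tested). No marker of these lists was at 0, as arrays give no true zero. The part of these shifts in the difference of Tgm3 was not tested. Centred on the deviations of cell junction genes, Tgm3 was at -1.58 (SE 0.21, adjusted p = 0.0186), where all genes had a median of 0.27.

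Among genes for the proteins that the epidermal enzymes cross-link, calls were made in both directions. Of 58 envelope precursor genes listed, 53 had a probe set and 46 were tested; 1 was called higher and 1 lower (4.35%, against 0.963% of all genes tested). Lce3c, a late cornified envelope gene, had 788 and 908 in Ovol2 BT against 172 and 156 in control, a rise of 2.26 on the log2 scale (adjusted p = 0.00346). Serpinb2, a serpin found in the envelope, had 113 and 180 in Ovol2 BT against 426 and 514 in control, and fell by 1.61 (adjusted p = 0.0213). The main precursor Lor was at -0.19 (SE 0.17, adjusted p = 0.709) and involucrin (Ivl), the early scaffold of the envelope, at -0.85 (SE 0.25, adjusted p = 0.245). Of the 46 genes 35 had lower values (76.1%, against 55.6% of all genes tested), and their median was -0.19. That median moves with the arrays used: it was -0.0028 without control replicate 1 and -0.40 without control replicate 2. It was -0.30 without Ovol2 BT replicate 1 and -0.095 without Ovol2 BT replicate 2. Under the same centring it was 0.12, below the 0.27 of all genes, so its sign depends on the scaling.

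The hair sheath list, of substrates and other genes, held no calls. It holds trichohyalin, the keratins of the inner root sheath and the deiminases that prepare them for cross-linking. Other genes such as Gata3, Cux1 and Ctsl, which are not substrates, are in it too. Of its 18 genes 13 were tested and 0 were called. There were 9 lower values (69.2%, against 55.6% of all genes tested), and the median was -0.32, the value of Gata3. At an unadjusted p of 0.05, Krt25, Krt71, Krt28, Krt75, Krt27 and Cux1 were lower and Padi3 was higher; these 7 were named after their values were seen, and among all genes tested 5.24% were lower and 5.11% higher at that p. Krt71, an inner root sheath keratin, had 256 and 320 in Ovol2 BT against 399 and 1210 in control (difference -1.24, SE 0.43, adjusted p = 0.353). Both Ovol2 BT arrays were the lower ones, and replicate 1 of control lay much nearer to them than to replicate 2 of control. Tchh, which encodes trichohyalin, had 90.9 and 91.4 in Ovol2 BT against 79.7 and 161 in control, overlapping groups (-0.28, adjusted p = 0.720). The list's median was -0.68 without control replicate 1, the control array with the lower Krt71, and -0.29 without control replicate 2. It was -0.48 without Ovol2 BT replicate 1 and -0.26 without Ovol2 BT replicate 2. Centred on the deviations of cell junction genes it was -0.013, where all genes had 0.27.

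Proteases and inhibitors around TGM3 were also listed, since cathepsins cleave the zymogen and cystatins restrain them. Of 15 tested genes 1 was called (6.67%, against 0.963% of all genes tested): the stefin A gene Stfa3, an inhibitor of cysteine proteases. It had 1590 and 1604 in Ovol2 BT against 3239 and 3787 in control, and fell by 1.13 (SE 0.18, adjusted p = 0.0249). Stefin A genes are near-identical copies, so signal may be shared among them. Ctsl, which encodes the cathepsin L that activates TGM3, was at 0.10 (SE 0.24, adjusted p = 0.899), with overlapping groups. Cst6, the cystatin that limits cathepsin L in the epidermis, was at 0.39 (SE 0.34, adjusted p = 0.704), also overlapping. At an unadjusted p of 0.05 in limma, 3 of the 15 were lower and 0 higher (20% lower, against 5.24% of all genes tested). They were Stfa3, Ctsc (-0.72) and Csta1 (-0.58), the last 2 named after their values were seen. The median of the list was -0.09.

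Lipid envelope, calcium and transcription factor genes around the epidermal enzymes held no calls. The lipid envelope list mixes genes for making, moving and attaching barrier lipids with the proteases Asprv1 and St14. Of its 18 tested genes 0 were called, 16 had lower values (88.9%, against 55.6% of all genes tested) and the median was -0.21. The sign of this median turned with 1 array, since it was 0.15 without control replicate 1 and -0.54 without control replicate 2. In the calcium list 0 of 18 genes were called, 16 had lower values (88.9%) and the median was -0.19, from -0.30 to -0.088 with 1 array left out. At an unadjusted p of 0.05, 2 genes of the first list and 2 of the second were lower (11.1% each, against 5.24% of all genes tested). In the list of factors reported at the Tgm1 or Tgm3 promoters or in granular differentiation, 0 of 27 were called, 19 had lower values (70.4%) and the median was -0.23, from -0.37 to -0.098 with 1 array left out, with 7 genes at an unadjusted p under 0.05 (6 lower, 1 higher). Grhl3, an activator of Tgm1, was at -0.23 (adjusted p = 0.751), Klf4, a factor of barrier formation, at -0.46 (adjusted p = 0.457), and Elf3, an Ets factor reported at the TGM3 promoter, at 0.16 (adjusted p = 0.768). Centred on the deviations of cell junction genes, all 3 medians were positive (0.10, 0.12 and 0.08), below the 0.27 of all genes there. That centring moves all genes by the same amount, so the change of sign follows from the shift.

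**Figure D3:**
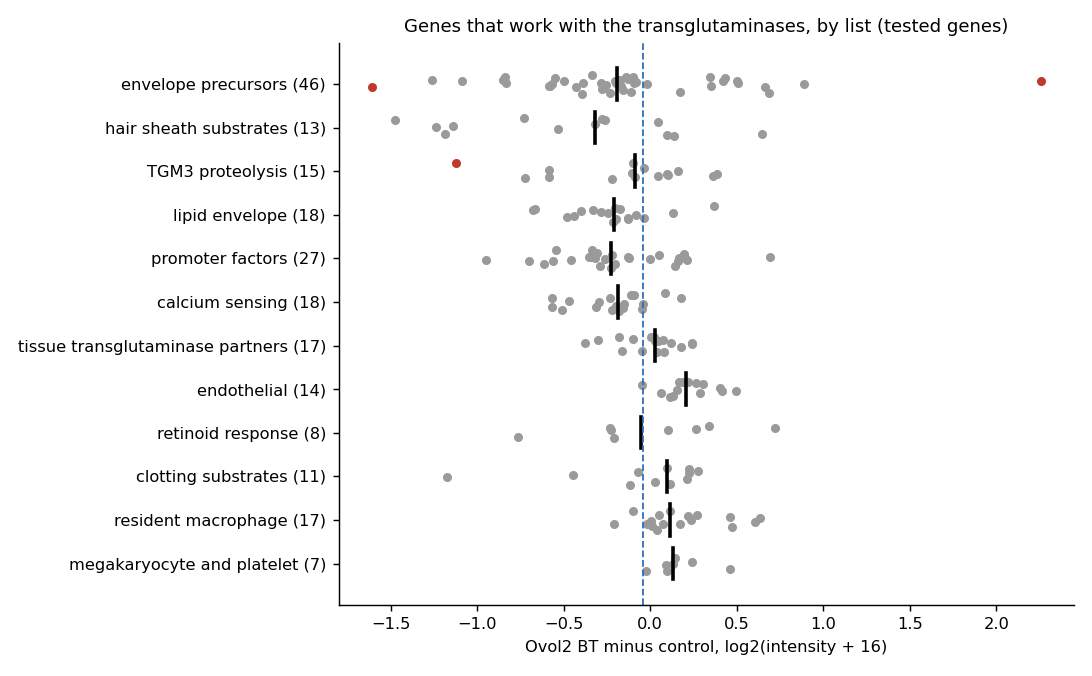
Difference between Ovol2 BT and control, on the log2(intensity + 16) scale, of each tested gene in 12 lists of substrates, regulators and host cell markers; the number of genes tested follows the list's name, red points have an adjusted p under 0.05, black bars are list medians and the dashed line is the median of all genes tested (-0.04). The 3 red points are Lce3c (2.26), Serpinb2 (-1.61) and Stfa3 (-1.13).

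Tgm2 encodes tissue transglutaminase, a widely made enzyme of endothelium, smooth muscle and matrix that also binds GTP and integrins. Its intensity was 782 and 807 in Ovol2 BT, against 662 and 529 in control. Both Ovol2 BT arrays lay above both control arrays. The difference was 0.41 (SE 0.22, 95% interval -0.07 to 0.90, adjusted p = 0.556), and the interval runs from 1.05-fold lower to 1.87-fold higher. It was 0.26 without control replicate 2 and 0.57 without control replicate 1.

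Endothelial markers are given beside Tgm2. None of 14 tested endothelial genes was called, or passed an unadjusted p of 0.05, while 13 had higher values (92.9%, against 44.4% of all genes tested). Their median was 0.21 and their summed intensity was 15000 and 14676 in Ovol2 BT, against 13411 and 12104 in control. Cdh5, the cadherin of endothelial junctions, had 2647 and 2832 in Ovol2 BT against 2362 and 2192 in control (0.27, adjusted p = 0.627). The log2 ratio of Tgm2 to the endothelial adhesion gene Pecam1 was -0.51 and -0.78 in Ovol2 BT, against -0.85 and -1.02 in control. The part of endothelial RNA in the values of Tgm2 was not tested. Of 17 tested matrix substrates and surface partners of TGM2, 0 were called and the median was 0.03, from -0.10 to 0.11 with 1 array left out; fibronectin (Fn1), a classic TGM2 partner, was at 0.04 (SE 0.14, adjusted p = 0.931). Retinoic acid raises Tgm2 in many cells, and of 8 tested retinoid response genes 0 were called, with 4 higher and 4 lower values. At an unadjusted p under 0.05, 1 gene was higher and 1 lower (12.5% each, against 5.11% and 5.24% of all genes tested).

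F13a1 encodes the A subunit of clotting factor XIII, which cross-links fibrin and in skin is made by dermal macrophages. Its intensity was 938 and 1432 in Ovol2 BT, against 872 and 1482 in control. The groups overlapped fully: in each group the array numbered 2 was the high one and the array numbered 1 the low one. The difference was 0.03 (SE 0.30, 95% interval -0.65 to 0.70, adjusted p = 0.979). The interval runs from 1.57-fold lower to 1.63-fold higher, and the sign turned when replicate 1 of control (-0.35) or replicate 2 of Ovol2 BT (-0.27) was left out.

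The spread of F13a1 within groups was shared by some macrophage markers and not by the list. Array number 2 exceeded number 1 by 0.60 in Ovol2 BT and 0.75 in control for F13a1. Mrc1, the mannose receptor of resident macrophages, had 611 and 904 in Ovol2 BT against 604 and 944 in control, the same order of arrays. The log2 ratio of F13a1 to Mrc1 was 0.60 and 0.65 in Ovol2 BT and 0.52 and 0.64 in control. That of F13a1 to Cd163, another marker of resident macrophages, was 3.01 and 3.49 in Ovol2 BT and 3.17 and 3.28 in control, more widely spread within Ovol2 BT. Of 17 tested macrophage genes, 5 were higher on number 2 in both groups (29.4%, against 29.0% of all genes tested). None of the 17 was called, and 14 had higher values in Ovol2 BT (82.4%, against 44.4% of all genes tested). At an unadjusted p under 0.05, 3 of the 17 were higher (17.6%, against 5.11% of all genes tested). The sum of the list was 15386 and 15198 in Ovol2 BT, against 13181 and 12595 in control. Megakaryocyte and platelet genes, another possible source of F13a1, gave 0 calls of 7 tested and 0 at an unadjusted p of 0.05, with a median of 0.13, from 0.056 to 0.24 with 1 array left out. The labels do not say what arrays of the same number share.

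Factor XIII acts on fibrin, and 0 of 11 tested clotting and fibrinolysis genes were called. At an unadjusted p of 0.05 only Fgb, a fibrinogen chain gene named after its values were seen, was lower, with 240 and 48.6 in Ovol2 BT against 250 and 301 in control (adjusted p = 0.473), and replicate 2 of Ovol2 BT stood apart from the other 3 arrays. The tissue factor gene F3, which starts clotting, was at -0.45 (SE 0.21, adjusted p = 0.508).

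A second RefSeq start of F13a1 was the only one of the 9 member windows with CCGTTA. It is shown in capitals with 10 bases on each side, on GRCm38.p6 at chr13:37049239-37049264, minus strand, with its first base 41 bases before that start.
F13a1: agggtgggagCCGTTAggaagttatt

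Tgm6 and Tgm7, known mainly from nervous system and testis, were dim in both groups. Tgm7 had 71.7 and 74.4 in Ovol2 BT, against 70.1 and 66.5 in control. Its difference was 0.08 (SE 0.14, 95% interval -0.23 to 0.39, adjusted p = 0.851), and -0.01 under quantile normalization. Tgm6 had 54.5 and 49.5 in Ovol2 BT, against 53.0 and 62.7 in control, overlapping groups with a difference of -0.12. The filter lay at a mean level of 6.38 on the log2 scale, with Tgm7 just inside at 6.44 and Tgm6 just outside at 6.14. The files hold no detection calls, so whether either gene was expressed was not settled. The 2 family genes outside the member list were equally dim: Tgm4, the prostate enzyme, had 43.2 and 57.8 in Ovol2 BT against 46.6 and 55.1 in control, and Epb42, an inactive relative of the red cell membrane, had 55.7 and 61.1 in Ovol2 BT against 56.0 and 51.4 in control.

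Family genes lie in clusters on chromosome 2, Tgm3 near Tgm6 and Tgm5 between Epb42 and Tgm7, and none of the tested neighbours of Tgm3 was called. Among the 3 protein-coding genes on each side of Tgm3 in RefSeq order, Sirpa (-0.15), Stk35 (-0.29) and Snrpb (-0.43) were tested (adjusted p from 0.529 to 0.779), while Pdyn, AU015228 and Tgm6 lay below the filter. Sirpa, Stk35, Snrpb and Pdyn had both Ovol2 BT arrays below both control arrays, as did 21.9% of all genes tested. For AU015228 and Tgm6 the groups overlapped. The cause was not tested. Beside Tgm5, Tgm7 was at 0.08 and Epb42, below the filter, at 0.09. The kinase gene Stk35, next to Tgm3, had 883 and 808 in Ovol2 BT, against 996 and 1080 in control.

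Genes with array patterns most like those of the members were ranked by the Euclidean distance between mean-centred log2 levels over the 4 arrays, a description that 2 groups of 2 arrays largely fix. For Tgm3 they were Cubn (distance 0.26), Lhx2 (0.30), Adh6b (0.30), Bnc1 (0.33) and Mycn (0.36), all called lower in Ovol2 BT by limma with adjusted p from 0.00311 to 0.00760, which their likeness to Tgm3 brings with it. Within 0.5 of Tgm3 lay 8 genes. Levels were not scaled, so this count reflects the size of the Tgm3 difference, which was used to select the family. Bnc1, a zinc finger gene of basal keratinocytes, had 96.7 and 108 in Ovol2 BT against 421 and 545 in control, and Lhx2, a factor of hair follicle progenitors, had 386 and 418 in Ovol2 BT against 1288 and 1667 in control. For Tgm1 the nearest were Esyt3, Psapl1, Tmem138, Eps8l2 and Sema4a (distances 0.06 to 0.10), among 1104 genes within 0.5; all 5 peaked in replicate 1 of control. For Tgm5 they were Pgm1, Adssl1, Myoz1, Myt1l and A730013G03Rik (0.06 to 0.10), among 1388 genes within 0.5. For F13a1 they were Ppp1cb, Klhl13, Ugp2, Rhoq and Colec12 (0.06 to 0.10), each higher on number 2 in both groups. For Tgm2 and Tgm7, 5574 and 10554 genes lay within 0.5, so their nearest genes are not named.

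**Figure D4:**
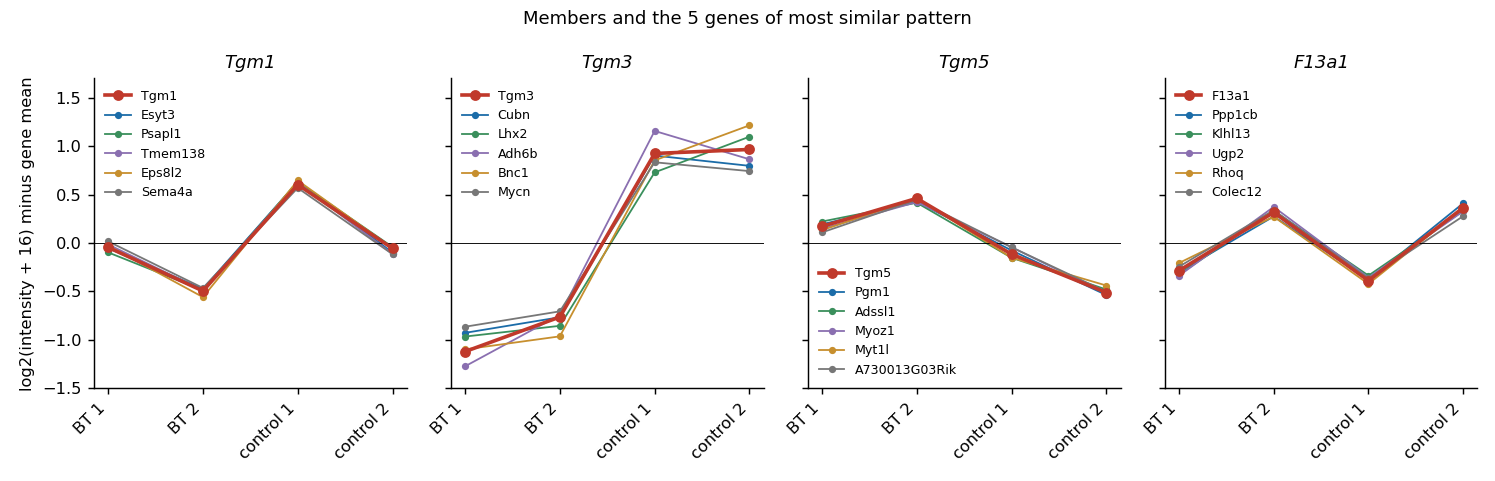
Level of Tgm1, Tgm3, Tgm5 and F13a1 (thick red) and of the 5 genes with the smallest distance to each, on the 4 arrays, as log2(intensity + 16) minus the mean of the gene; lines only join the points of one gene. Tgm3 and its nearest genes split by group, Tgm1 peaks in control replicate 1, and F13a1 follows the replicate number.

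Across 17 alternatives of processing, Tgm3 kept its sign and its call in each, with differences from -2.07 to -1.32 and a highest limma adjusted p of 0.0186. Some alternatives could hardly change this. Tgm3 has 1 probe set, so averaging probe sets left its difference as it was, and a looser threshold of 0.10 can only add calls. The other members were called in no alternative but one, the centring of arrays on the median level of the cell junction genes, under which the median of all genes was 0.53 and 4276 genes were called. It also called Tgm5, Tgm2 and Tgm7 higher.

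**Figure D5:**
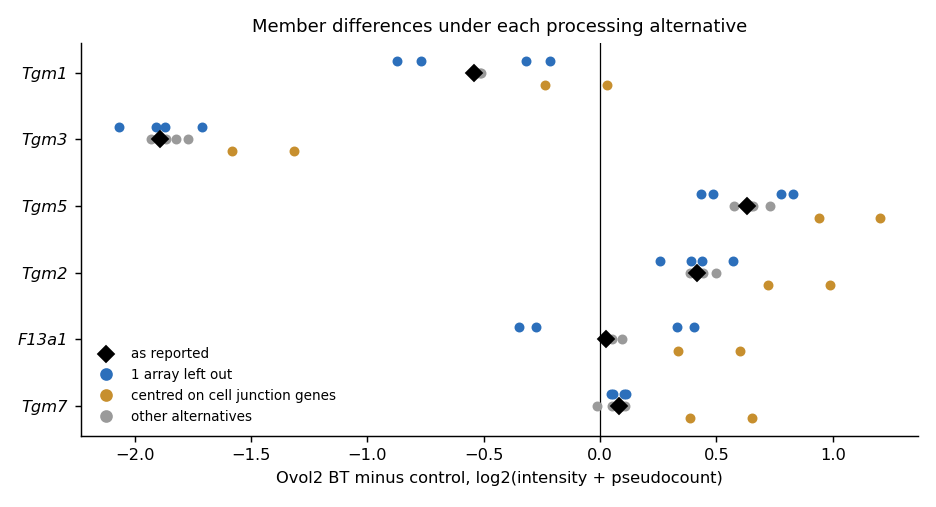
Difference between Ovol2 BT and control of the 6 tested members as reported (black diamonds) and under each alternative, with 1 array left out in blue, the 2 centrings on cell junction genes in amber and the rest in grey. Tgm3 lies between -2.07 and -1.32 throughout, while Tgm1, F13a1 and Tgm7 reach both sides of 0.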

How the data were processed

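The deposited intensities were made by the authors with PLIER 2.0 in Affymetrix Expression Console 1.1.1, per the submitters' processing notes; background correction, normalization and genome build: not given in the sources used here. The array annotation names 1 gene for 21789 of 35557 probe sets, several for 1621 and none for 12147. For 999 genes with several probe sets, the one of highest mean intensity was used, which left 19938 genes.

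Values were taken as log2(intensity + 16). The dimmest 25% of genes were removed, and limma 3.58.1 in R 4.3.3, with a trended prior variance, tested 14953 genes, with Benjamini-Hochberg adjustment over all of them, a threshold of 0.05, 2 residual and 6.94 prior degrees of freedom. The procedure was run on data simulated from its own variance model, with independent genes. That run cannot show how well the calls hold in these arrays. Arrays carry no counts, so their number limits the precision.

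Members and gene lists were chosen with earlier results of these data known. Named from each list were up to 4 called genes, or the 2 brightest where none was called, with defining markers, neighbours and the 5 nearest patterns per member. There were 17 alternatives. Promoters came from RefSeq (GRCm38.p6). Python 3.11.15 and matplotlib 3.10.9 drew the figures.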

Additional observations from a re-analysis of the deposited data

How the results depend on the processing

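Tgm3 kept its direction and its call under all 17 alternatives, some of which could hardly change them. Centring arrays on the median level of the cell junction list called 4276 genes and 4 members, and gave 0.030 for Tgm1, 1.20 for Tgm5, 0.99 for Tgm2 and 0.65 for Tgm7; the list's own genes were then at a median of 0.30, so this centring did not level them. Centring on the median deviation of the same genes, chosen after seeing the data, called 221 genes, 201 of them higher, and 1 member. With 1 array left out, 204 to 351 genes were called, the lone array being assumed to vary like the other group, and F13a1 ranged from -0.35 to 0.40. Tgm7 was at -0.013 under quantile normalization and had no value with the lower 50% of genes left out. The causes were not tested.

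The replicate number as a block gave 671 calls, 323 higher and 348 lower, and left Tgm3 as the called member. Across genes, which are not independent, the deviations of arrays with one number had a correlation of 0.41, but the labels state no pairing and with 2 numbers this is only a hint. Tgm1 had an adjusted p of 0.0522 with the block. Only 2 arrays a group limit the precision, and dim genes have no detection call.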

Other observations

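Within the substrate lists, 3 gene groups, picked after their values were seen and so given with no test of their own, ran in different directions. All 9 tested Sprr2 genes, small proline-rich envelope precursors, had higher values in Ovol2 BT (0.35 to 0.89, median 0.50). None was called by limma (adjusted p from 0.227 to 0.676), and the groups stood apart upward in 5, where 20.4% of all genes tested did. Other small proline-rich genes did not share this rise: Sprr3 was at -1.26, Sprr1a at -1.09, Sprr1b at -0.08 and Sprr4 at 0.17, none of them called. All 13 tested Lce1 genes, late envelope precursors, had lower values (-0.57 to -0.02, median -0.25), none was called (adjusted p from 0.362 to 0.974), and the groups stood apart downward in 3, where 21.9% of all genes tested did, so that count is near the background. Genes of both groups are near-identical copies in clusters, so their probe sets may share signal and their agreement is not that of independent genes. Of 7 tested inner root sheath and companion layer keratins, 6 had lower values with groups apart, beside the same 21.9%, and none was called (-1.47 to 0.14, adjusted p from 0.144 to 0.889). In control, replicate 2 lay far above replicate 1 for Krt25 (375 and 1218) and Krt71 (399 and 1210), but not for Krt72 (277 and 265). Whether these keratins vary independently was not tested.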
